A study of Homo sapiens with 3 samples.

Results

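CDH1, CDH2, CDH3 and CDH11 are 4 classical cadherins of the 36601 genes listed in these single-cell count tables, and they were taken by their gene symbols. Each symbol matched 1 gene, and all 4 genes were above the 2 CPM (UMI counts per 1000000 of a library) used as the minimum in every comparison between days. The cells are UCLA1, an established human pluripotent stem cell line, grown in the culture the submitters call GiMO and covered with Geltrex, a gel of basement membrane proteins. Cells were taken at day 1, day 2 or day 3, freed with trypsin and EDTA and captured in droplets, with 1 library a day. All 3 groups share the line, the gel and the dissociation, and the labels give no genotype change. The labels do not state whether or when a factor such as BMP4 was added.

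Classical cadherins are transmembrane proteins that bind cadherins on neighbouring cells and hold the actin cytoskeleton through catenins. CDH1 (E-cadherin) and CDH3 (P-cadherin) are known from epithelia, and CDH1 also holds pluripotent stem cells together. CDH2 (N-cadherin) and the type II member CDH11 are known from mesenchyme. At gastrulation, cells that leave the epiblast through the primitive streak lose CDH1 and gain CDH2, the cadherin switch. SNAI and ZEB factors, which bind E-box sequences, are known repressors of CDH1. TFAP2A, MESP1 and SOX2, whose transcripts set the classes of cells used here, are transcription factors known from amnion and surface ectoderm, from nascent mesoderm and from pluripotent and neural cells.

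CDH3 (ENSG00000062038, chromosome 16, positions 68636189 to 68727468 on the plus strand of hg38) and CDH1 (ENSG00000039068, chromosome 16, 68737292 to 68835537, plus strand) are neighbours with 9823 bases between them. CDH11 (ENSG00000140937, chromosome 16, 64943753 to 65126112, minus strand) is on the same chromosome. CDH2 (ENSG00000170558, chromosome 18, 27932879 to 28177946, minus strand) is not. 4 further genes of the tables overlap CDH1, CDH2 or CDH3, each at no more than 0.980 CPM in any library, and without stated strand their reads cannot be told from those of the cadherin.

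CDH2 is the cadherin whose upstream sequence was in the RefSeq table used (GRCh38.p14). The windows before its 2 listed starts are shown because CDH2 was among the members called higher at each later day. Capitals mark a match to the E-box CANNTG, searched on both strands (the motif is its own reverse complement). The windows are chr18:28177131-28177380 and chr18:28036642-28036891, both on the minus strand and 250 bases long.
CDH2 upstream start: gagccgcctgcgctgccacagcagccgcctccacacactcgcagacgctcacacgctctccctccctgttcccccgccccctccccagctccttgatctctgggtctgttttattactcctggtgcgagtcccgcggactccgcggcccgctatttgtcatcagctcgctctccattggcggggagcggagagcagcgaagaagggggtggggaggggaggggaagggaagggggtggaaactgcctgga
CDH2 downstream start: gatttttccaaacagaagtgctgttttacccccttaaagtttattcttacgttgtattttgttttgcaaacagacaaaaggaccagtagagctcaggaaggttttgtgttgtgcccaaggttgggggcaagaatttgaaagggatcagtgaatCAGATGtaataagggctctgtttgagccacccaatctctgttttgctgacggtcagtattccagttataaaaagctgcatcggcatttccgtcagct
The first window is 66% G and C and holds 0 matches, and the second is 42% G and C and holds 1. CANNTG was present in 61.8% of 35116 windows of that length. The SNAI and ZEB form of the E-box (CAGGTG or, on the other strand, CACCTG) was in 17.5% of them and in neither CDH2 window. These are letter matches in short windows and not binding sites.

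The libraries held 4889, 10580 and 7860 cell barcodes at days 1, 2 and 3, of which 3533, 7224 and 6804 cells were kept. The median depth of kept cells was 41595, 15642 and 19227 unique molecular identifiers (UMIs, each marking 1 captured transcript). Between 5 and 10 barcodes were shared by any 2 libraries. Summed pluripotency markers were at 2055, 1868 and 877 CPM of the UMIs of kept cells, and neural markers at no more than 0.157 CPM with SOX1 at 0. Markers of nascent mesoderm summed to 3.94, 170 and 1303 CPM at days 1, 2 and 3, and those of definitive endoderm to 1.46, 7.82 and 21.5. Amnion markers were present at each day, at 40.9, 43.5 and 103 CPM, though TFAP2A among them was lowest at day 3 (13.3, 15.2 and 8.48). The composition of the libraries differed, so that levels by day are given beside levels within classes. Day, library and any batch coincide and cannot be told apart, and with 1 library a day no test between days was possible and no p-value is given. Intervals in parentheses are exact 95% intervals for counting error only.

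CDH1 and CDH3, the epithelial pair, were lower at day 3 than at day 2, while CDH2 and CDH11 were higher at each later day. For CDH1, the day 1 library had 69.3 CPM (68.0 to 70.6), the day 2 library 93.1 (91.4 to 94.8) and the day 3 library 31.4 (30.5 to 32.4). CDH3 followed the same order, with 36.2 CPM (35.3 to 37.1), 46.3 (45.1 to 47.5) and 19.8 (19.1 to 20.5). Day 2 was thus the highest library for both, and day 3 the lowest. CDH2 was at 83.9 CPM (82.5 to 85.3), 166 (164 to 168) and 384 (381 to 387). CDH11 was at 7.18 CPM (6.77 to 7.60), 45.0 (43.8 to 46.2) and 584 (580 to 588), which is 0.337, 0.746 and 11.8 UMIs per cell. UMIs per cell also depend on depth, which was highest at day 1. They were 3.94, 2.75 and 7.77 for CDH2, 3.25, 1.54 and 0.636 for CDH1, and 1.70, 0.767 and 0.40 for CDH3. The order of days given here is thus that of CPM. None of the intervals of a gene overlapped between days.

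**Figure D1:**
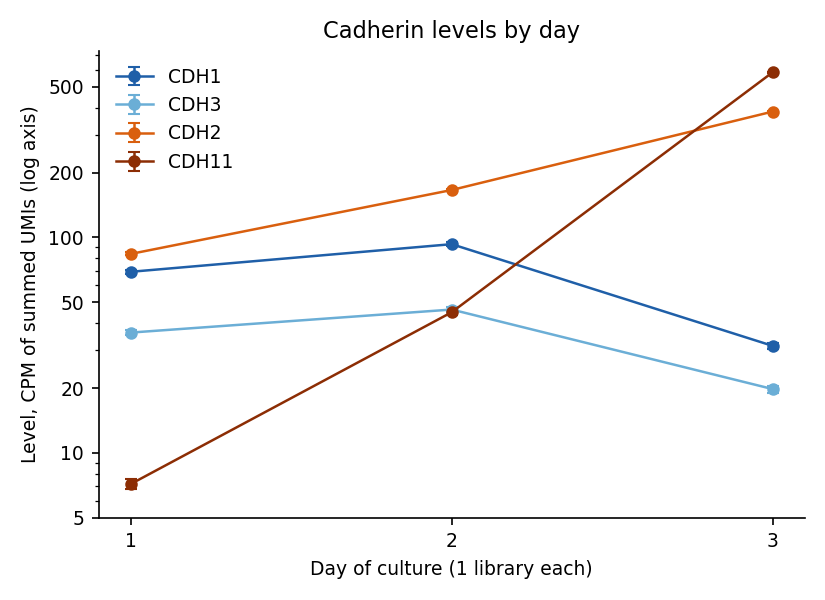
Level of each cadherin (CPM of summed UMIs, log axis) against the day of culture, 1 library each, with bars for the 95% counting interval. CDH11 climbs from 7.18 to 584 CPM and CDH2 from 83.9 to 384, while CDH1 and CDH3 are lowest at day 3.

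From day 1 to day 2, CDH11 was 6.27-fold higher (5.89 to 6.68) and CDH2 1.98-fold higher (1.94 to 2.02). These 2 of the 4 passed a ratio of 1.5, as did 21.4% of all genes in that direction, while 5.67% of genes were lower by that ratio. CDH1 was 1.34 times (1.31 to 1.38) and CDH3 1.28 times (1.23 to 1.33) its day 1 level. The median gene differed by 0.24 on the log2 scale between these libraries, and by -0.10 after scaling by trimmed means (TMM). With that scaling CDH1 was at 1.07 and CDH3 at 1.02 times day 1, CDH2 at 1.58 and CDH11 at 5.00. The split of all genes then turned from 3050 higher and 807 lower to 1295 higher and 2428 lower. CDH1 and CDH3 were not below their day 1 level under either scaling.

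From day 2 to day 3 all 4 cadherins passed the ratio, CDH2 and CDH11 upward beside 14.1% of all genes and CDH1 and CDH3 downward beside 16.7%. CDH11 was 13.0-fold higher (12.6 to 13.3) and CDH2 2.31-fold higher (2.27 to 2.35). CDH1 was 2.96-fold lower (2.86 to 3.07) and CDH3 2.34-fold lower (2.23 to 2.45). The median gene differed by 0.01 on the log2 scale. In library levels, the switch pattern (CDH1 lower and CDH2 higher) was seen between days 2 and 3 and not between days 1 and 2. These levels average over all cells of a day, and classes within day 2 are given below. Between days 1 and 3, CDH11 was 81.4-fold higher (76.9 to 86.2) and CDH2 4.58-fold higher (4.49 to 4.66), beside 32.2% of all genes past the ratio upward. The larger of the 2 ratios was thus that of the type II cadherin.

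Most of the factors known to repress CDH1 were higher at each step. Of 10 repressors, 7 were higher and 0 lower at day 2 (median log2 ratio 1.01), where 21.4% of all genes were higher and 5.67% lower. At day 3, 6 were higher and 0 lower (median 1.47), beside 14.1% and 16.7% of all genes. With TMM scaling the number higher at day 2 was 5. SNAI3 was at 3.10, 2.63 and 1.82 CPM, under the ratio of a call at both steps. ZEB2 was at 2.73, 10.0 and 140 CPM at days 1, 2 and 3, and ZEB1 at 1.95, 6.05 and 69.3. SNAI1 was at 1.88, 12.4 and 51.0 CPM and SNAI2 at 0.157, 2.72 and 33.3. SNAI1 was thus 6.59 times its day 1 level at day 2, in a library where CDH1 was not lower. Both levels are means over all cells of a library. With day 2 cells at equal depth (below), a SNAI1 UMI was detected in 5.78% of them. It was detected in 4.59% of the cells with a CDH1 UMI and in 6.46% of those without. Whether CDH1 was lower because of SNAI1 in the cells that held it was not tested. Among known activators of epithelial genes, 0 of 9 passed the ratio at day 2, and 6 of 8 were lower and 1 higher at day 3 (median -1.37). With TMM scaling 2 of them were lower at day 2. ESRP1, a splicing factor of epithelia, was at 89.0, 104 and 26.3 CPM, and GRHL2, an activator of CDH1, at 68.0, 75.9 and 22.0. KLF5 was the activator that was higher at day 3, at 2.21 times its day 2 level (24.4 CPM).

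Among catenins and other parts of the adherens junction the counts were near those of all genes. Of 14 genes, 2 were higher and 1 lower at day 2 (21.4% and 5.67% of all genes), and 2 were higher and 2 lower at day 3 (14.1% and 16.7% of all genes). The medians were 0.27 and -0.22 on the log2 scale. CTNNB1 (beta-catenin, which binds the cadherin tail) was at 1.43 and then 1.22 times the level of the day before. CTNND1 (p120, which holds cadherins at the membrane) was at 1.65 times day 1 at day 2, and 0 of the 14 were higher there with TMM scaling. CTNNA1, which links to actin, was at 0.859 times its day 2 level at day 3. AFDN (1.68 times) and NECTIN2 (1.55 times) were the higher ones at day 3, and CTNNA2 (0.532 times) and NECTIN1 (0.650 times) the lower ones. Genes that cleave or turn over cadherins had medians of 0.42 and 0.12. MMP14, a membrane protease, was at 2.62, 9.19 and 27.4 CPM, and ADAM10, the main sheddase of CDH1 and CDH2, at 50.3, 79.0 and 93.9.

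Other classical cadherins went both ways. Of 9 measured at day 2, 6 were higher and 1 lower, beside 21.4% and 5.67% of all genes. Of 10 measured at day 3, 6 were higher and 3 lower, beside 14.1% and 16.7%. CDH6 was the measured one that was lower at both steps, at 27.5, 14.3 and 1.66 CPM. CDH20 was at 2.24, 13.5 and 42.4 CPM and CDH4 at 47.7, 48.9 and 86.6. CDH8 was highest at day 2, at 7.91, 15.8 and 7.92 CPM. CDH5, the endothelial cadherin, was at no more than 0.0585 CPM. For epithelial genes outside the cadherins, 1 of 15 was higher and 2 lower at day 2 (5 lower with TMM scaling), and 1 was higher and 9 lower at day 3 (2 higher with TMM scaling). For mesenchymal genes, 8 of 12 were higher and 2 lower at day 2, and 11 of 13 were higher and 1 lower at day 3. The shares of all genes beside both lists are those just given. The mesenchymal list shares TWIST1, SNAI2 and ZEB2 with the repressors of CDH1, and MMP2 with the genes of cadherin turnover. The 2 mesenchymal genes lower at day 2 were VIM (0.360 times day 1) and COL1A1 (0.490 times).

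Cells were then compared at equal depth, with each thinned at random to 5000 UMIs (3499, 6742 and 6675 cells at days 1, 2 and 3). At least 1 CDH1 UMI was present in 27.2%, 35.9% and 11.8% of cells (85.6%, 69.6% and 29.7% without thinning). CDH3 was detected in 16.6%, 20.2% and 8.07% of thinned cells (71.1%, 48.5% and 23.3% without). CDH2 was detected in 31.8%, 48.1% and 79.3% (85.8%, 77.1% and 96.2% without). CDH11 was detected in 3.74%, 15.6% and 75.0% (21.9%, 31.4% and 89.0% without). At this depth a cell with a few transcripts often shows none, so that the shares rank days but do not count cells without the gene.

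Free RNA can give a UMI to a cell that does not express the gene. As a reference, CDH1 was detected in 8.30% of 1650 day 3 cells with at least 3 MESP1 UMIs (median depth before thinning 19179.5) and in 26.9% of 108 SOX2-positive cells without MESP1 (20888.5). The level in the first class was 0.321 times that in the second (0.218 to 0.486). The same ratio was 0.316 for EPCAM, 0.0851 for OCLN and 0.0655 for CRB3, so that epithelial genes did not keep 1 ratio between these classes. For KRT8 it was 2.04. CDH11 was detected in 18.5% of the SOX2-positive cells and 77.9% of the MESP1 cells.

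CDH1 and CDH2 were detected together about as often as their separate shares give at days 1 and 2. Both were present in 9.49% of cells at day 1, 17.3% at day 2 and 8.30% at day 3. The observed share was 1.09 times the product of the 2 shares at day 1 (0.985 to 1.21), 1.00 times at day 2 (0.951 to 1.06) and 0.890 times at day 3 (0.820 to 0.964). Cells with CDH1 alone of the pair were 17.7%, 18.6% and 3.46%, and cells with CDH2 alone 22.3%, 30.8% and 71.0%. Day 2 thus held the largest share of cells with both and a near-equal share with CDH1 alone as day 1.

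**Figure D2:**
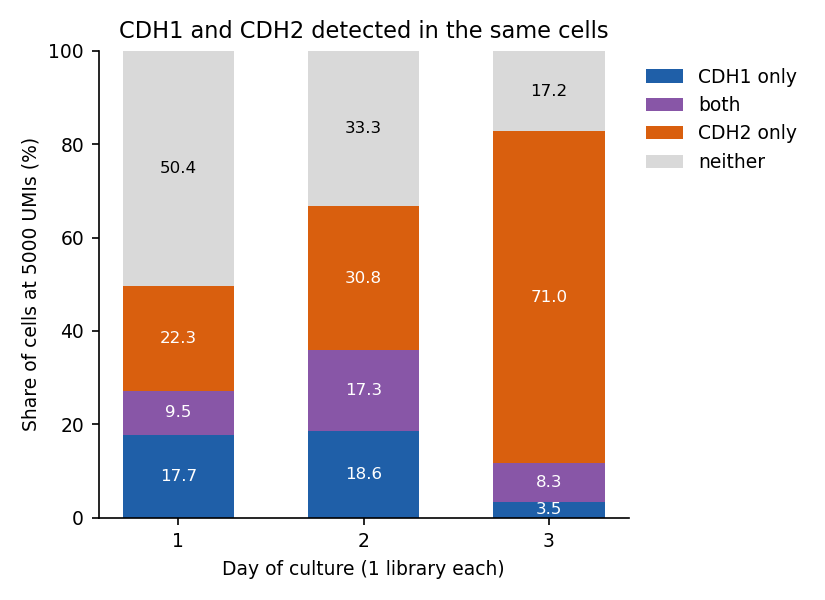
Share of cells (%, stacked) with UMIs of CDH1 only, both, CDH2 only or neither, by day, each cell at 5000 UMIs. Cells with both are most frequent at day 2 (17.3%), and cells with CDH2 only make up 71.0% at day 3.

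Of the other pairs, CDH2 with CDH3 was near the product at each day, at 1.06 (0.925 to 1.22), 0.943 (0.873 to 1.02) and 0.931 (0.844 to 1.02) times. CDH1 and CDH3 were together 1.15 times as often as the product at day 1 (0.993 to 1.32), 1.09 times at day 2 (1.00 to 1.18) and 2.54 times at day 3 (2.17 to 2.96). CDH2 and CDH11 were together 1.32 times as often at day 1 (0.995 to 1.71), 1.28 times at day 2 (1.18 to 1.37) and 1.03 times at day 3 (1.01 to 1.05), when most cells had both. CDH1 and CDH11 were apart at day 3, with 0.620 times the product (0.560 to 0.685), as were CDH3 and CDH11 with 0.596 times (0.525 to 0.675). Among the 16 states of the 4 genes at day 3, CDH2 with CDH11 alone took 54.7% of cells, CDH11 by itself 12.0% and CDH2 by itself 11.8%. No UMI of the 4 was seen in 41.4%, 23.7% and 4.07% of cells at days 1, 2 and 3.

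A balance within each cell was read from the unthinned counts of cells with at least 10 UMIs of CDH1 and CDH2 together, which were 938, 622 and 2338 cells, or 26.5%, 8.61% and 34.4% of kept cells. These are cells rich in the 2 transcripts or deeply sequenced. Kept cells held on average 1.54 CDH1 and 2.75 CDH2 UMIs at day 2, and 0.636 and 7.77 at day 3. At these days a cell thus passed more easily through CDH2, and cells with mostly CDH1 were less likely to pass. The shares below describe only the cells that passed. The median CDH1 share of the 2 was 42.9% at day 1, 20% at day 2 and 0% at day 3. Its SD over cells was 20.2, 20.7 and 12.9 percentage points, which is 1.52, 1.65 and 1.92 times what binomial counting of 1 common share would give. Cells under 10% CDH1 were 2.88%, 24.1% and 78.5%, and cells over 90% CDH1 were 1.60%, 0.482% and 0.385%. Of the cells that passed, most at day 1 (95.5%) and day 2 (75.4%) held a mixture between these bounds, against 21.1% at day 3.

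**Figure D3:**
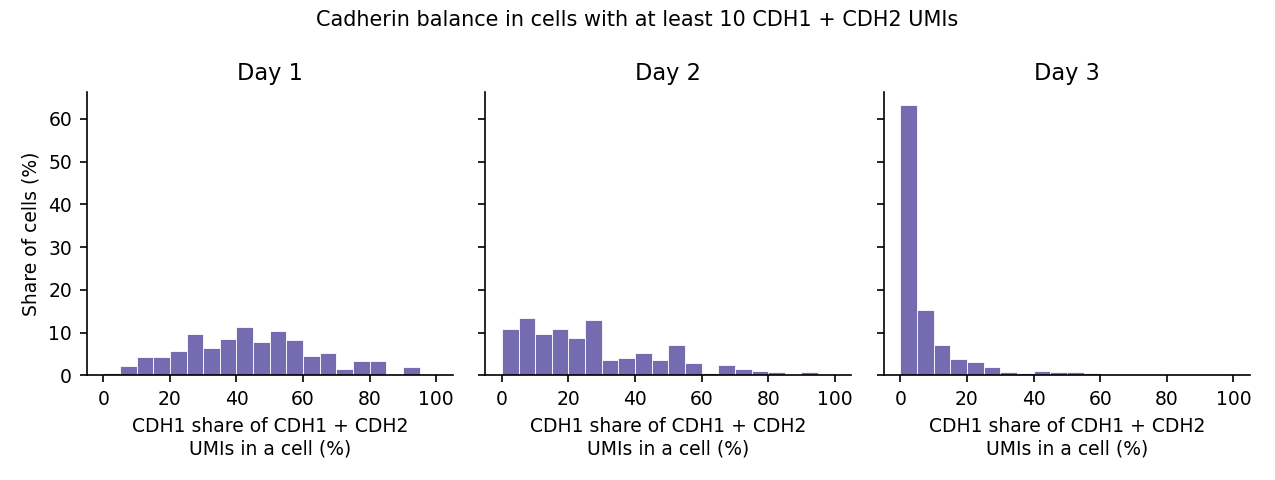
Share of cells (%) by the CDH1 part of a cell's CDH1 and CDH2 UMIs (%, bins of 5), in cells with at least 10 of these UMIs, 1 panel a day. The median moves from 42.9% to 20% and 0%. At day 2, 24.1% of the cells shown are under 10% CDH1 and 0.482% over 90%. At days 2 and 3 cells passed the minimum of 10 UMIs more easily through CDH2, so the shape describes only these cells.

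Cells were next split by MESP1, TFAP2A and SOX2. A class is positive with at least 1 UMI of the gene at 5000 UMIs, so negative cells include cells that express it at a low level. A cadherin was called in a class where the ratio to the negative cells was at least 1.5 in either direction with an interval without 1. MESP1 was detected in 11, 1291 and 4215 cells, TFAP2A in 205, 458 and 245, and SOX2 in 1870, 1743 and 128.

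At day 2, MESP1-positive cells had more CDH2 and CDH11 and somewhat less CDH1 and CDH3 than the other cells of that day. CDH2 was at 298 CPM (284 to 311) against 141, a ratio of 2.11 (2.00 to 2.23), and CDH11 at 104 CPM (96.7 to 113) against 34.1, a ratio of 3.06 (2.77 to 3.38). CDH1 was at 71.3 CPM (64.9 to 78.1) against 97.9, a ratio of 0.728, and CDH3 at 35.8 against 49.0, a ratio of 0.730. CDH2 and CDH11 were called, beside 4.57% of genes higher and 7.52% lower. Over cells with 0, 1, 2, 3, 4 and at least 5 MESP1 UMIs, CDH2 was at 141, 272, 307, 332, 323 and 340 CPM. CDH1 was at 97.9, 79.9, 70.9, 60.1, 74.7 and 36.9 CPM in the same cells, so that CDH2 differed little between bins from 2 MESP1 UMIs on. In cells with at least 3 MESP1 UMIs, CDH1 was at 0.630 times (0.510 to 0.772) and EPCAM at 0.606 times (0.523 to 0.700) the level of SOX2-positive MESP1-negative cells of that day. How much of the CDH1 in them came from free RNA was not tested. CDH11 was at 34.1, 62.1, 134, 121, 141 and 212 CPM.

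At day 3 the picture for MESP1 was different. CDH1 and CDH3 were the called genes, lower in MESP1-positive cells beside 6.28% of genes (1.05% were higher). CDH1 was at 23.4 CPM (21.4 to 25.6) against 43.3, a ratio of 0.540, and CDH3 at 12.8 against 29.8, a ratio of 0.428. CDH2 was at 380 CPM (372 to 389) against 403, a ratio of 0.944, and CDH11 at 580 against 561, a ratio of 1.03. The pooled ratio of CDH11 covers a range, since over 0, 1, 2, 3, 4 and at least 5 MESP1 UMIs it was at 561, 648, 598, 567, 508 and 426 CPM. Its level was thus highest at 1 UMI (630 to 667) and lowest at 5 or more (401 to 452). The CDH11 ratio was 1.33 at 10000 UMIs and 0.915 when 2 UMIs were required. Median depth was near equal, at 19450 and 19275 UMIs.

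**Figure D4:**
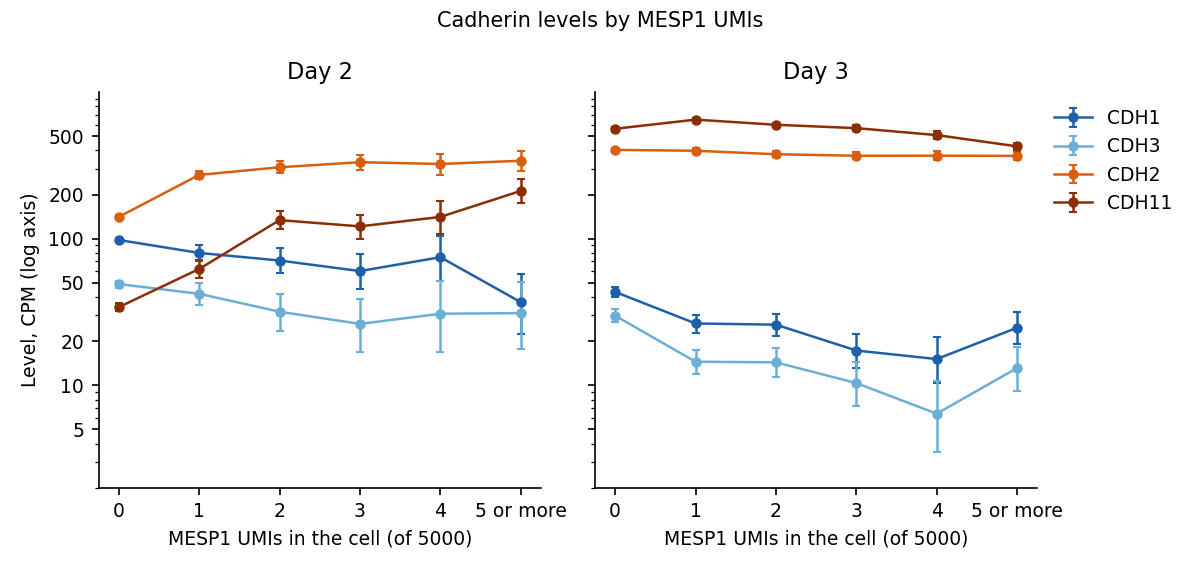
Level of each cadherin (CPM, log axis) against the number of MESP1 UMIs in the cell, at days 2 and 3, with bars for the 95% counting interval. At day 2 CDH2 and CDH11 are higher from the first MESP1 UMI on while CDH1 goes from 97.9 CPM without MESP1 to 36.9 with 5 or more. At day 3 CDH2 lies between 367 and 403 CPM, and CDH11 goes from 648 at 1 UMI to 426 at 5 or more.

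TFAP2A-positive cells had more CDH1 and CDH3 and less CDH11 than the other cells at day 3. CDH1 was at 114 CPM (96.1 to 135) in them against 27.6 in TFAP2A-negative cells, a ratio of 4.15 (3.44 to 4.96), and CDH3 at 55.5 CPM (43.1 to 70.4) against 17.7, a ratio of 3.14 (2.41 to 4.05). CDH11 was at 201 CPM (177 to 228) against 587, a ratio of 0.342, and CDH2 at 275 (247 to 306) against 393, a ratio of 0.700. CDH1, CDH3 and CDH11 were called, beside 9.32% of genes higher and 6.54% lower. The class was graded. Over cells with 0, 1 and at least 2 TFAP2A UMIs, CDH1 was at 27.6, 97.0 and 195 CPM, CDH11 at 587, 227 and 79.1 and CDH2 at 393, 293 and 191, though the last bin held 43 cells. None of the 4 was called at day 1 (3.45% of genes higher, 1.17% lower) or at day 2 (1.95% and 1.76%). CDH1 in TFAP2A-positive cells was at 90.7 CPM (73.2 to 111), 101 (88.3 to 115) and 114 (96.1 to 135) at the 3 days in turn, and these intervals overlap. In TFAP2A-negative cells it was at 65.0, 92.2 and 27.6 CPM.

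SOX2-positive cells had less CDH2 and CDH11 than other cells at days 2 and 3. At day 2, CDH2 was at 110 CPM (104 to 118) in them against 192, a ratio of 0.576, and CDH11 at 24.8 against 55.5, a ratio of 0.446. Both were called, beside 1.49% of genes higher and 3.84% lower, while CDH1 (89.8 against 93.9 CPM) and CDH3 (49.9 against 45.3) were near equal. At day 1 none was called (0.0762% higher, 1.02% lower), and CDH1 was at 58.5 CPM (53.7 to 63.6) against 75.8, a ratio of 0.772 (0.885 from unthinned UMIs). At day 3, 128 cells had a SOX2 UMI. CDH11 was at 82.8 CPM (62.0 to 108) in them against 583, a ratio of 0.142, and CDH2 at 217 (183 to 256) against 392, a ratio of 0.554. CDH3 was at 67.2 CPM (48.6 to 90.5) against 18.1, a ratio of 3.71 (2.66 to 5.06), which was 2.18 with another random thinning and 2.92 from unthinned UMIs. CDH1 was at 53.1 CPM (36.8 to 74.2) against 30.3, a ratio of 1.75 (1.21 to 2.47). All 4 were called, beside 14.4% of genes higher and 9.14% lower.

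The 3 genes together separated the day 3 cells further. Cells with TFAP2A and neither other gene (129 cells) had 143 CPM of CDH1 (115 to 175), 247 of CDH2 and 169 of CDH11. Cells with TFAP2A and MESP1 (113) had 83.2 CPM of CDH1 (61.1 to 111), 313 of CDH2 and 241 of CDH11. Cells with MESP1 alone (4082) had 21.8 CPM of CDH1 (19.8 to 23.9), 383 of CDH2 and 591 of CDH11. By level, the cells with TFAP2A and MESP1 were thus between the cells with either gene alone for CDH1, CDH2 and CDH11. Their intervals overlapped those of the cells with TFAP2A alone for CDH2 (269 to 363 against 210 to 288) and CDH11 (202 to 285 against 139 to 204). Cells with none of the 3 (2223) had 36.8 CPM of CDH1, 422 of CDH2 and 609 of CDH11 (595 to 624), the last interval overlapping that of the cells with MESP1 alone (580 to 602).

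A library's level is the mean over its classes, so the day difference was taken within them. CDH1 was lower at day 3 than at day 2 within cells with MESP1 and no SOX2 (23.4 against 71.3 CPM, a ratio of 0.328, 0.288 to 0.375). It was also lower within cells with neither (42.6 against 101 CPM, 0.422, 0.382 to 0.466) and within cells with SOX2 and no MESP1 (59.3 against 91.0 CPM, 0.652, 0.442 to 0.928). CDH3 in SOX2-positive cells was at 1.22 times its day 2 level (0.826 to 1.73), and in the MESP1 class at 0.351 times (0.292 to 0.423). CDH2 was 1.24-fold higher (1.18 to 1.30) within the MESP1 class and 2.65-fold higher (2.53 to 2.78) within cells with neither gene. CDH11 was 5.38-fold higher (4.97 to 5.83) in the MESP1 class, 15.0-fold higher (13.9 to 16.2) with neither gene and 2.19-fold higher (1.41 to 3.29) with SOX2. If each class had kept its day 2 level, the shift in class sizes alone would have given day 3 a ratio of 0.884 for CDH1, 1.47 for CDH2, 0.863 for CDH3 and 1.73 for CDH11. The observed ratios over the same thinned cells were 0.331, 2.28, 0.410 and 12.0. Classes set by 1 UMI are impure, and a finer split could give a larger share to the make-up.

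Other marker genes gave further classes at day 3. SOX17-positive cells (232), a gene of definitive endoderm and primordial germ cells, had CDH2 at 539 CPM (497 to 583) against 383 and CDH3 at 52.6 (40.2 to 67.5) against 17.8, with little CDH11 (116 against 590). Their CDH1 was at 29.3 CPM (20.3 to 41.0) against 30.8, so that the 2 epithelial cadherins parted there. The 33 cells with FOXA2, an endoderm factor, had CDH2 at 855 CPM (719 to 1008) and CDH11 at 66.7 (33.3 to 119). ISL1-positive cells (808) had CDH1 at 55.4 CPM (48.4 to 63.2) against 27.3 with CDH11 no different in size (588 against 571), unlike the TFAP2A class. Cells with LHX1 or HAND1, factors of early and lateral mesoderm, had CDH11 at 2.25 and 2.32 times the level of other cells and CDH1 at 0.224 and 0.547 times. ZEB2-positive cells had CDH1 at 0.399 times and CDH3 at 0.364 times, with CDH11 at 713 CPM against 476. At day 2, cells with SNAI2 had CDH2 at 2.46 times the level of other cells, with CDH1 at 1.05 times (0.742 to 1.44).

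**Figure D5:**
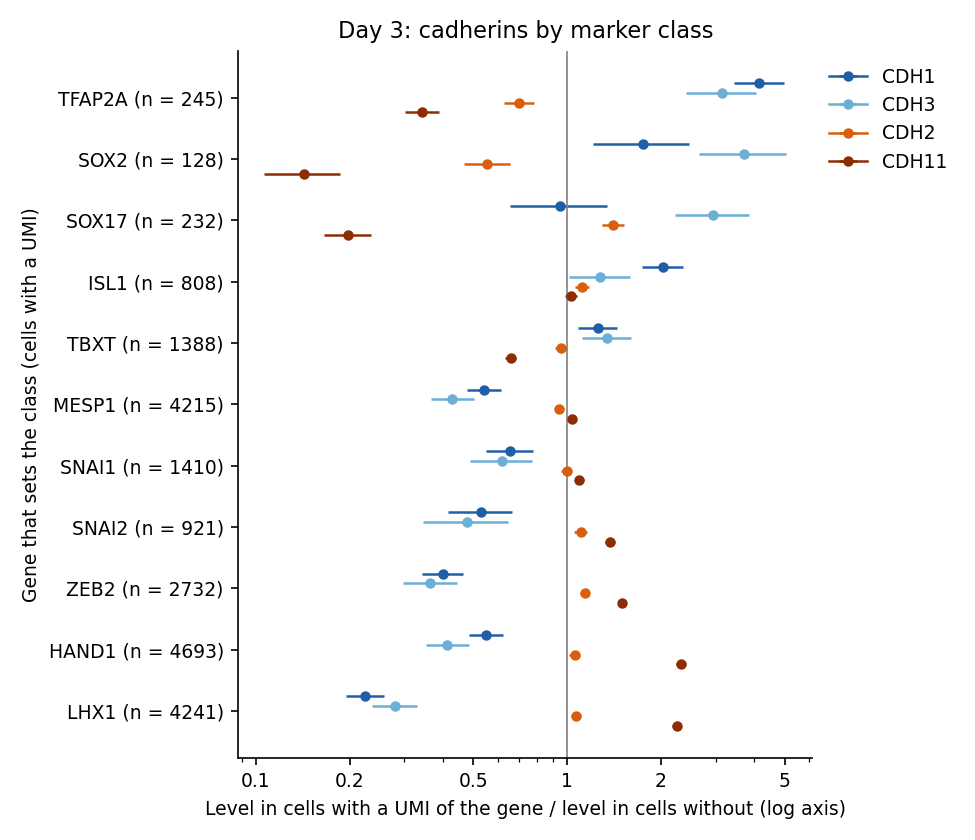
Ratio of each cadherin's level in day 3 cells with a UMI of the gene named at the left to that in cells without (log axis), with bars for the 95% counting interval and the number of positive cells. CDH1 and CDH3 are right of 1 in TFAP2A and SOX2 cells, CDH3 alone of the pair in SOX17 cells, and CDH11 is left of 1 in all 3.

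The genes whose level ran most like each cadherin were sought over 16 groups (day and class, at least 50 cells), among 12210 genes. The groups of a day share a library, and r is a description. For CDH1 these were PATJ (r = 0.97), a polarity protein, EPCAM (0.92), an epithelial adhesion molecule, PCDH11X (0.92), TPD52 (0.91) and SERTAD4 (0.89), and opposite to it CYCS (-0.85), RPLP2 (-0.83) and NOP16 (-0.80). For CDH3, PCDH11X (0.94) led again, before MAP7, SH3YL1, CAPN1 and SEMA6A (0.92 to 0.90), with UROD, RRP7A and OLFM1 opposite. For CDH2 the list was LGR5 (0.98), the R-spondin receptor, APLNR, the apelin receptor, COL5A2, the cardiac and endoderm factor GATA4, and COL5A1 (0.97 each), with LINC01405, BTG1 and C16orf74 opposite. For CDH11 it was HAPLN1 (0.97), a link protein of the matrix, PPFIBP1, ZNF521, FAM89A and EIF4G2, with ACOT7, NME3 and AKR1A1 opposite. Between the members, r was 0.81 for CDH1 and CDH3 and 0.92 for CDH2 and CDH11. It was -0.42 for CDH1 and CDH2. With values centred within each day these were 0.81, 0.66 and -0.43.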

How the data were processed

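For each library the authors deposited a matrix of whole-number UMI counts over 36601 genes. Cell Ranger 5.0.1 and hg38 are named in the submitters' processing notes. The counts were not normalised, and the strand setting of the counting is not stated. The day of each of the 3 libraries was read from its time label.

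Barcodes under 1000 genes or over 20% mitochondrial UMIs were removed (1212, 2688 and 599). Scrublet (scanpy 1.11.5) had no working automatic threshold, as it marked 0 cells. Cells with the top doublet scores were therefore taken out at 0.8% per 1000 barcodes (144, 668 and 457). UMIs were summed and divided by library totals (CPM). Poisson, conditional binomial and Clopper-Pearson intervals at 95% came from scipy 1.17.1 and cover counting error only. TMM factors came from edgeR 4.0.16. For per-cell values each cell was thinned to 5000 UMIs, leaving out 34, 482 and 129 shallower cells.

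Genes between days were called at a ratio of 1.5 where the higher level reached 2 CPM. Calls between classes also needed an interval without 1 and at least 10 CPM in the higher class. Likeness was Pearson's r of log2(CPM + 1). Genes named were the members, the 5 most and 3 least like each, the 5 highest and 3 lowest in its positive cells by the least extreme day, class genes and list members, apart from 1 gene that is not reported here. The scripts were tested on simulated data. Positions are from GENCODE release 44, and 1 of 4 members matched the RefSeq promoter table (CDH1, CDH3 and CDH11 did not). The members and lists were chosen with earlier results of these data known. Alternatives covered scaling, cell and doublet filters, call thresholds, thinning depth and seed, the UMI threshold and centring within days.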

Additional observations from a re-analysis of the deposited data

Results flagged for a closer look

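CDH1 lay on opposite sides of equality in SOX2-positive cells of 2 days. Its level was 0.772 times that of SOX2-negative cells at day 1 (1870 positive cells) and 1.75 times at day 3 (128 positive cells). The difference between the days was not tested, since each day is 1 library. From unthinned UMIs of the same cells the values were 0.885 and 2.13. Median depth was 45274.5 UMIs in SOX2-positive and 39207 in negative cells at day 1, against 20086.5 and 19377 at day 3, and the part of depth in the result was not tested.

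CDH2 was likewise opposite in MESP1-positive cells, with 2.11 times the level of MESP1-negative cells at day 2 and 0.944 times at day 3. This difference was not tested either. The value at day 3 was 1.00 when cells were thinned to 10000 UMIs. The level in MESP1-positive cells was 298 CPM at day 2 and 380 at day 3, and that in MESP1-negative cells 141 and 403.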

How the results depend on the processing

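No paired analysis was possible because each day has 1 library. Of 722 values recomputed, 592 stayed within their interval, or within 1.5 times for counts, 127 moved beyond it and 3 changed direction. The cause was not tested, apart from what a setting changes by construction. The reversals were CDH2 in MESP1-positive over negative cells of day 3 (1.00 at 10000 UMIs), CDH11 in the same contrast (0.915 when 2 UMIs were required) and CDH2 in SOX2-positive MESP1-negative cells, day 2 over day 1 (0.980 when 2 UMIs were required). Each main value was near 1 or under the ratio of a call.

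With TMM scaling, day 2 over day 1 was 1.07, 1.58, 1.02 and 5.00 for CDH1, CDH2, CDH3 and CDH11, with 1295 genes higher and 2428 lower. With median-of-ratios scaling it was 1.07, 1.58, 1.02 and 5.00, with 1280 and 2428, and day 3 over day 2 was 0.350 for CDH1, 2.40 for CDH2 and 13.5 for CDH11. With all deposited barcodes CDH2 was at 2.35 for day 3 over day 2. At 10 CPM, 1703 genes were higher and 515 lower at day 2, and 1244 and 1242 at day 3. At a ratio of 2 these counts were 1135 and 163, and 1140 and 1345.

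Shares of cells follow the depth and the number of UMIs by construction. At 10000 UMIs, at days 1, 2 and 3, CDH1 was in 46.6%, 55.8% and 19.1% of cells, CDH2 in 51.8%, 68.2% and 92.3%, CDH3 in 29.9%, 34.5% and 14.9%, and CDH11 in 6.34%, 23.6% and 84.0%. With 2 UMIs they were 5.00%, 8.14% and 2.37%, then 7.83%, 21.0% and 52.8%, then 2.00%, 2.73% and 1.23%, then 0.343%, 4.33% and 59.6%. CDH1 and CDH2 observed over product was then 1.61, 0.946 and 0.611. Another seed gave CDH11 in 14.6% of day 2 cells.

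Ratios of positive to negative cells moved as follows. At 10000 UMIs CDH11 was 0.380 (SOX2, day 2) and, at day 3, CDH3 4.06 (TFAP2A), CDH1 0.457 and CDH11 1.33 (MESP1). Another seed gave CDH1 1.29 (TFAP2A), 0.817 (MESP1) and 1.04 (SOX2) at day 2, and CDH11 1.10 (MESP1) and CDH3 2.18 (SOX2) at day 3. Requiring 2 UMIs at day 2 gave CDH1 1.39, CDH2 0.724 and CDH11 1.61 for TFAP2A, CDH3 0.621 and CDH11 3.87 for MESP1, and CDH1 0.841, CDH2 0.504 and CDH11 0.362 for SOX2. At day 3 it gave CDH1 6.58, CDH2 0.489, CDH3 4.24 and CDH11 0.137 for TFAP2A. Without doublet removal CDH11 was 0.199 (SOX2, day 3). Unthinned UMIs, an alternative chosen after seeing the data, gave CDH1 0.885 (SOX2, day 1) and CDH11 1.08 (MESP1, day 3).

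Within classes, day 3 over day 2 at 10000 UMIs was 0.501 (CDH1), 0.771 (CDH3) and 13.0 (CDH11) with neither gene, 1.30 (CDH2) and 6.13 (CDH11) with MESP1 and 1.41 (CDH2) with SOX2. CDH2 with neither gene, day 2 over day 1, was 1.69. Another seed gave 0.487 (CDH1, neither) and 1.49 (CDH2, SOX2). Requiring 2 UMIs gave 0.377 (CDH1), 2.50 (CDH2) and 0.493 (CDH3) with neither, and 1.15 (CDH2) and 3.78 (CDH11) with MESP1. Unthinned UMIs gave 1.38 for CDH1 with SOX2, day 2 over day 1, and 16.4 for CDH11 with neither, day 3 over day 2. With at least 20 UMIs for the balance, 1.64% of day 1 and 82.5% of day 3 cells were under 10% CDH1, and 0% of day 2 and 0% of day 3 cells over 90%. The 108 and 128 cells of the day 3 SOX2 classes, and the single library a day, limit what these ratios can show.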

Other observations

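Cells with a UMI of a cadherin were also compared with the cells of the same day without one, over genes that reached 10 CPM in either class on each day. For CDH11-positive cells, 41 of 8821 genes were at least 1.5 times higher in each library, against 2 of 8682 for CDH1 and 0 for CDH2 and for CDH3. NCAM1, the neural cell adhesion molecule, led for CDH11, at 3.37, 3.71 and 4.53 times the level of CDH11-negative cells at days 1, 2 and 3. LZTS1, ADAMTS3, PRTG and SEMA5A followed, and HES6, HIST3H2A and LAMA5 (a basement membrane laminin, at 0.587, 0.678 and 0.545 times) were lower. At day 1 the CDH11-positive cells were 131 of 3499, against 953, 1114 and 581 cells with CDH1, CDH2 and CDH3. No interval was required for these ratios, so the members are not ranked by their counts of genes.

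CDH1-positive cells had more DMD (1.91, 1.80 and 2.72 times) and FREM2 (1.56, 1.69 and 5.43 times), then HS6ST3, AC073114.1 and SLC4A8, and less IGFBP4 and CLPP. HS6ST3, a heparan sulfate sulfotransferase, also led for CDH3 (1.49, 1.51 and 5.23 times), before IGFBP7 (1.36, 1.64 and 5.88 times), TSPEAR, ALK and NIPAL1, with NME6, TRIM52-AS1 and NOC4L lower. CDH2-positive cells had more NRG1 (1.54, 1.53 and 1.47 times), a ligand of ERBB receptors, with CAMK2D, CEP112, SOX5 and SETBP1 next, and less GDF3 (0.711, 0.616 and 0.524 times), a TGF-beta family ligand of pluripotent cells, MT1X and C1orf198.

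At equal depth, the variance of CDH11 over cells was 1.15, 2.17 and 2.89 times its mean at days 1, 2 and 3, against 1.11, 1.16 and 1.54 times for CDH1. This ratio grows with the mean, which was 2.87 UMIs for CDH11 and 0.154 for CDH1 at day 3, so the genes are not ranked by it. The day 3 cell with most held 29 CDH11 UMIs of 5000. At day 3, CDH11-negative cells (1670) held a SOX17 UMI in 9.58%, a TFAP2A UMI in 9.10% and a SOX2 UMI in 5.87%, against 1.44%, 1.86% and 0.599% of CDH11-positive cells, with median depths of 18630 and 19666 UMIs. Cells with CDH1 and no CDH2 at day 3 (231) held TFAP2A in 22.1%, ISL1 in 22.5% and CDH11 in 32.5%, against 2.38%, 12.3% and 80.4% of the cells with CDH2 and no CDH1. HAND1 was in 55.4% of the former and 73.7% of the latter, MESP1 in 37.2% and 65.5%, and LHX1 in 26.0% and 69.2%. GATA3 was in 26.8% and 20.5%.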
